A study of Mus musculus with 2 samples.

Results

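Heat shock proteins and their partner proteins, the cochaperones, were described in sorted mouse Flk1+Tie2+ cells with and without a pulse of the transcription factor Mesp1. Members were chosen by gene symbol, with earlier results of these data known. They are the Hspa, Hspb, Hspd, Hspe, Hsph and Hsp90 genes, the DnaJ proteins of classes A, B and C, the BAG proteins, the heat shock factors, the subunits of the CCT chaperonin, both alpha-crystallins and Stip1. A gene counted when at least 1 probe set of the array named it and no other gene. This gave 91 of 18193 genes, measured by 216 of 45037 probe sets. Of these, 10 genes (18 probe sets) were small heat shock proteins and 81 belonged to the other families.

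Both samples were Flk1+Tie2+ cells sorted on day 5 from embryoid bodies, aggregates in which embryonic stem cells differentiate. The stem cell line, A2lox.Mesp1 on a 129/Ola background, carries a Mesp1 gene that doxycycline (dox) switches on. One culture was untreated, and the other received dox at 250 ng/mL from day 2 to day 4. Each condition was measured on 1 array, so all differences describe a pair of samples, with no replicate error, no test and no p-value. Mesp1 measured 2433 without dox and 10977 after it, by a probe set whose match to the transgene could not be checked. The genes of the sort were similar on both arrays: Kdr, which encodes Flk1, measured 10140 in the untreated and 10733 in the dox sample, and Tek, which encodes Tie2, had 8799 and 9277. Of 12 endothelial marker genes all reached the median signal on both arrays. By the brightest probe set of each, 1, Cldn5, differed 2-fold or more (3582 without dox, 1350 with dox). The next farthest, Sox18 (4833 and 3785) and Esam (5586 and 4380), were lower by less. By any amount 9 of the 12 were lower with dox and 3 were higher. Their summed signal was 63763 without dox and 58830.5 with dox. In the log2 measure defined below their median difference was -0.14, and the dimmer of 2 probe sets of Erg gave -1.81.

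Chaperones help other proteins to fold, keep unfolded ones from clumping and pass damaged ones on for refolding or breakdown. HSP70 proteins bind short exposed stretches of a client and let go in a cycle driven by ATP, which DnaJ proteins speed up and which BAG proteins and HSP110 reset by exchanging the nucleotide. HSP90 finishes signalling proteins, the CCT ring folds actin and tubulin, and the small heat shock proteins hold unfolded clients without using ATP. Heat shock factors, chiefly HSF1, switch on many of these genes under stress, while several small heat shock proteins are also made at rest in heart, muscle and lens.

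Every difference below is log2(signal + 16) with dox minus the same without dox, taken from the brightest probe set of a gene unless stated. Signals have arbitrary units. The medians over all probe sets were 112 on the untreated and 127 on the dox array, and the lowest value in the table was 1. A signal under the median of its array is called dim here, and fold changes of dim genes depend on the constant that was added. The only measure of error within the arrays is how far probe sets of 1 gene disagree. Its pooled SD was 0.45 log2 units over all named probe sets and 0.26 for those with a mean signal of 500 or more.

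The chaperone set as a whole lay almost even between the arrays. Of the 91 genes 1, Cryab, was higher with dox by 2-fold or more and 1, Dnajb5, was lower by as much, and the other 89 stayed under that size. Each count is 1.10% of the set, beside 4.77% of all 18193 genes higher and 2.04% lower. At 1.5-fold, 8 members were higher and 2 were lower, beside 11.3% and 7.31% of all genes. The median difference of the members was 0.03, and that of all genes was 0.04. Of the members 75 had a signal at or above the median on at least 1 array. Among all genes with such a signal 5.69% were 2-fold higher and 2.06% lower. Of the 547 genes of the array with a mean signal of 8000 or more, 0.548% were 2-fold higher and none was 2-fold lower. The members were not matched to other genes by signal, so these shares cannot tell whether the set is unusually even. The scaling of the arrays moved the counts over all genes but not those of the members. The higher genes made up 70.0% of all genes past 2-fold as deposited, 60.7% after quantile normalization and 52.3% after both arrays were centred on their medians, which subtracts 0.16 from every difference. The median of all genes became -0.04 after quantile normalization and -0.12 after centring.

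**Figure D1:**
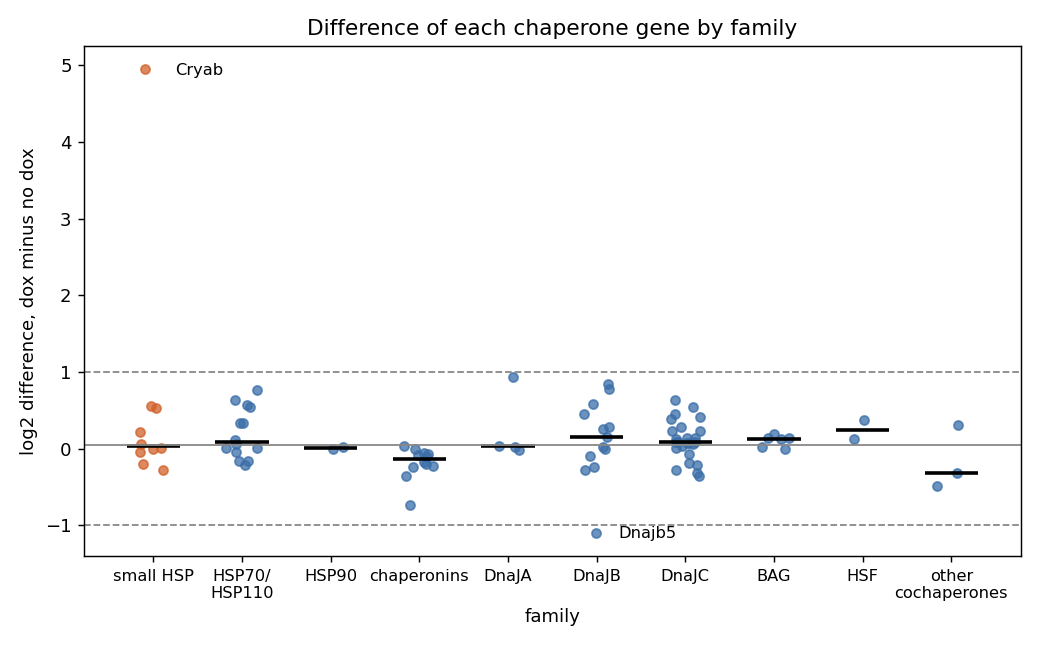
Log2 difference (dox minus no dox) of each of the 91 chaperone genes by its brightest probe set, grouped by family; 1 point is 1 gene, thick bars are family medians, the solid line is the median of all genes (0.04) and dashed lines mark 2-fold. Cryab (4.95) stands far above every other member, and Dnajb5 (-1.10) is the only gene below the lower dashed line.

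Small heat shock proteins were compared with the other families. The median difference was 0.03 for the 10 small heat shock protein genes and 0.03 for the 81 others, so the medians differed by -0.0031 (small minus other). The small family nevertheless held the widest range, from -0.28 for Hspb1 to 4.95 for Cryab, but through Cryab alone. Without Cryab its median was 0.0079 and its range ended at 0.56 for Hspb3, which was dim on both arrays. That is narrower than the range of the DnaJB class, from -1.10 to 0.84. Other scalings turned the sign of the small family's median, to -0.02 after quantile normalization and -0.13 with median-centred arrays, where that of the others was 0.02 and -0.13. Of the 10 genes 6 reached the median signal on at least 1 array and 5 on both.

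Cryab encodes alpha-B-crystallin, a small heat shock protein of lens, heart and skeletal muscle that binds desmin and titin. Its brightest probe set, 1434369_a_at, read 41.7 in the untreated and 1764 in the dox sample, a 30.9-fold gap on the log2(signal + 16) scale. A second probe set, 1416455_a_at, was listed at the floor of 1 without dox and at 376 with dox, which gave 4.53. The last one, 1435837_at, was dim on both arrays, at 78.6 and 70.3, and gave -0.13. Both probe sets that differed were dim without dox, so the size of the fold is not firm. The log2 difference was 5.37 with 1 added to each signal and 4.11 with 64 added. The mean over the 3 probe sets was 3.11, and where all probe sets with a suffix before _at were left out, the dim one alone remained.

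Hspb2 is the neighbour of Cryab in the RefSeq annotation (GRCm38.p6), with no other protein-coding gene listed between them. Its protein forms complexes with Hspb3 in muscle. Hspb2 read 44.1 without dox and 53.6 with it (0.21) and was dim on both arrays. Hspb3 was listed at the floor of 1 without dox and at 9 with dox, also dim on both. The large difference of Cryab was thus not seen for the neighbouring gene at the signal this array gave.

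Hspb1, the stress-induced small heat shock protein also called Hsp25, was measured by a pair of probe sets that went opposite ways. The brighter, 1422943_a_at, had 2036 without dox and 1669 with dox, a log2 difference of -0.28. The other, 1425964_x_at, had 21.4 and 387, a log2 difference of 3.43. The suffix _x_at marks a probe set in which some probes match other transcripts too. Their mean was 1.57, past 2-fold. Which of the readings applies to Hspb1 cannot be told from these values.

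The remaining small heat shock proteins of muscle differed little by their brightest probe sets. Hspb6, which is abundant in smooth muscle, had 319.2 without dox and 318.9 with dox. Hspb7, the cardiovascular member of the family, had 152 and 130, and all 3 of its probe sets were lower with dox, by -0.20 to -0.60. Hspb8, which works with Bag3 in the removal of damaged muscle proteins, had 257 and 258. Its dimmer probe sets gave log2 differences of 0.74 (84.5 to 152) and 1.07 (86.4 to 199), so its 3 probe sets lay on the same side but not at the same size. Hspb11, a subunit of intraflagellar transport rather than a chaperone, had 1701 and 2463, a log2 difference of 0.53. Its second probe set was dim, at 18.9 and 1. The lens crystallin Cryaa (11.7 and 10.8) and Hspb9, known from testis (1 and 1.67), were dim on both arrays.

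**Figure D2:**
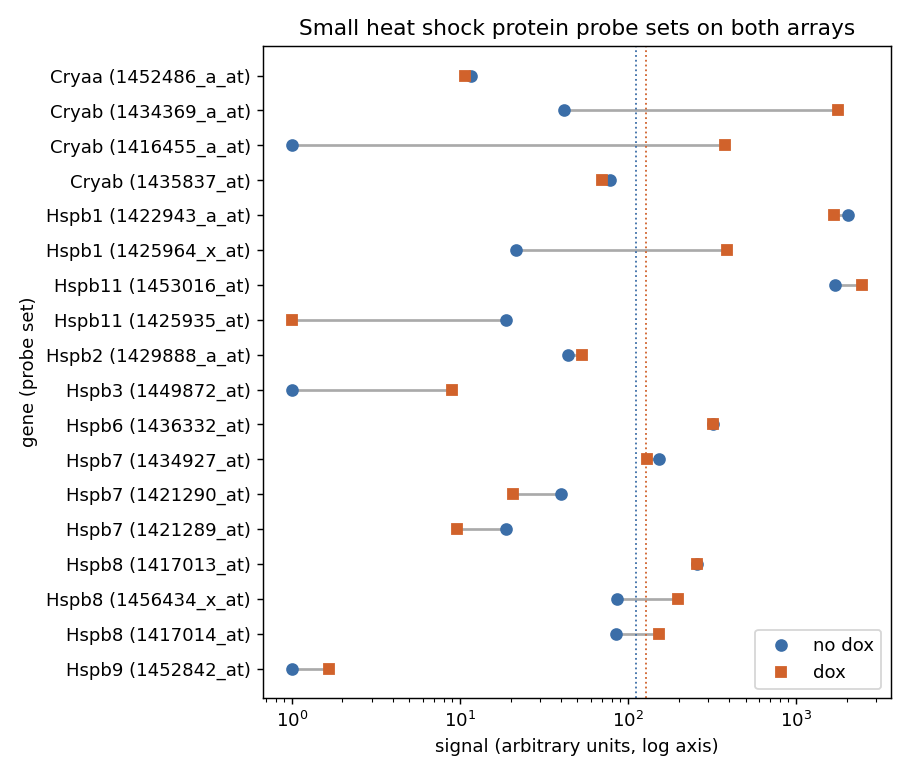
Signals of the 18 probe sets of the 10 small heat shock protein genes without dox (circles) and with dox (squares), in arbitrary units on a log axis; dotted lines are the array medians (112 and 127). The 2 probe sets of Cryab that differed, the lower one of Hspb1 and both dimmer ones of Hspb8 go from below the lower median to above the upper one, while the brightest probe sets of Hspb6 and Hspb8 coincide.

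Markers of cell types other than endothelium also differed between the samples, and not all in the same direction. Of 18 cardiomyocyte markers 7 exceeded 2-fold upwards and none downwards, and their summed signal was 3417 without dox and 9637 with dox. Nebl was listed at the floor of 1 without dox and at 379 with dox, Myl4 had 31.0 and 674, and Tnnt2 had 122 and 1469. Each also had a dimmer probe set that was less than 2-fold higher, with log2 differences of 0.78, 0.33 and 0.55. Of 16 smooth muscle and mesenchyme markers 10 were 2-fold higher and 2 were 2-fold lower, and their summed signal was 9033 and 42657. The farthest were Tagln (96.7 and 3960), Lum (26.8 and 1029) and Col3a1 (530 and 10557), and the lower ones were Mylk (1103 and 262) and Smtn (2438 and 1126). The 3 probe sets of Mylk had no common direction, with log2 differences from -2.01 to 0.74. Cnn1 and Lmod1 of that list were at the floor of 1 without dox. By contrast none of 10 skeletal muscle markers differed 2-fold (summed signal 1009 and 845), and the farthest, Ckm (149 and 68.7), Myod1 (57.9 and 25.8) and Myh8 (13 and 1), were lower with dox. None of 7 lens markers differed 2-fold either (642 and 637), with Bfsp1 (201 and 158), Crygd (6.84 and 12.4) and Lim2 (115 and 137) the farthest. Erythroid markers were lower with dox: 3 of 8 were 2-fold lower and none was 2-fold higher, and their summed signal was 7841 and 3650. Those 3 were Hbb-bh1 (3282 and 535), Hba-x (140 and 62.0) and the dim Alas2 (24.1 and 1.67). After either rescaling of the arrays 1 skeletal and 1 cardiomyocyte marker passed 2-fold lower. The part of these cells in the Cryab difference was not tested, and in a bulk sample more cells of a type and more RNA per cell cannot be told apart.

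HSP70 proteins carry most of the folding work of the cytosol, and 14 genes of this family and of HSP110 were measured. All 14 lay within 2-fold, with a median of 0.08 as deposited and -0.08 with median-centred arrays. The constitutive Hspa8 read 19021 without dox and 19140 with it (0.01), beside highest signals of 22018 and 22539 on the arrays, and its other probe sets gave -0.02, -0.06 and -0.50. Among the organelle forms the mitochondrial Hspa9 had 5929 and 6152 (0.05). Hspa5, the HSP70 of the endoplasmic reticulum, had 12682 and 12738 (0.0063). By their brightest probe sets these 3 genes were even between the arrays as deposited.

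The heat-inducible pair Hspa1a and Hspa1b was higher with dox by less than 2-fold. Hspa1b had 356 without dox and 615 with dox, a log2 difference of 0.76, and its other probe sets gave 0.76 and 0.35. Hspa1a had 31.2 and 52.9, dim on both arrays, with a log2 difference of 0.55. Their neighbour Hspa1l, a testis form, was listed at 1 and 10.3. Across the alternatives of scaling, filter and probe set Hspa1b stayed between 0.35 and 0.78, beside the pooled probe set SD of 0.45. Hspa1a and Hspa1b are nearly identical genes, so probes may detect both, and the values are not separate observations.

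The promoters of this pair hold a site known from heat induction. A heat shock element is a run of GAA units in alternating orientation, and its smallest forms searched here were GAANNTTC and TTCNNGAA, both of which read the same on either strand. The 250 bases before the transcription start (RefSeq, GRCm38.p6) are given 5′ to 3′ on the gene's strand, with matches in capitals. The windows of Hspa1b (chr17:34959239-34959488, minus strand) and Hspa1a (chr17:34972157-34972406, minus strand) were identical at 247 of 250 positions. Hspb1 (chr5:135887669-135887918, plus strand) is shown as the heat-inducible small heat shock protein.
Hspa1b: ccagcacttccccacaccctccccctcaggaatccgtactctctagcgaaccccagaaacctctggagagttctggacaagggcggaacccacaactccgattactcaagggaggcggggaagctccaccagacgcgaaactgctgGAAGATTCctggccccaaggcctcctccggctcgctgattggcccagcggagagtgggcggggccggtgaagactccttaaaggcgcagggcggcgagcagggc
Hspa1a: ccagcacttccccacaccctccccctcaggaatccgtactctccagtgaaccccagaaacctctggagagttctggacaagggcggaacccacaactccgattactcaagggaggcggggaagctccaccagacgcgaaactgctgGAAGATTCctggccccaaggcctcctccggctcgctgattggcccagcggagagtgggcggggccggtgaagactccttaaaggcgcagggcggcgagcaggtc
Hspb1: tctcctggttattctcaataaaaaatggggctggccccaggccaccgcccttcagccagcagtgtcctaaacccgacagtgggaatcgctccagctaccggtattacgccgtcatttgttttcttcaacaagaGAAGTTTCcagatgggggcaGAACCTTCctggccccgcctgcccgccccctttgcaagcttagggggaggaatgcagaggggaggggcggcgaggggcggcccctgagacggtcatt

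Hspb1 held 2 matches, and Hspa1a and Hspa1b held 1 each. One or both forms were found in 12.8% of all 32851 promoter windows of this length and in 20.0% of the 95 windows that belonged to 75 member genes. The table held no window for 16 members, Cryab and Hspb2 among them, so the only member 2-fold higher is not part of the following values. The 17 member genes with a match had a median log2 difference of -0.05, from -0.73 to 0.93, and the 58 without one had a median of 0.06. A match describes these letters only, and windows of 1 gene can overlap.

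The rest of the HSP70 genes differed little to moderately. Hspa12b, an HSP70 relative of endothelium, had 226 and 289 (0.33). Its relative Hspa12a had 211 and 186 by the brightest probe set (-0.16). All 4 probe sets of Hspa12a were lower with dox, and the one with signals of 229.5 and 62.2 gave -1.65. Hspa2 (82.0 and 130) had a log2 difference of 0.57, and Hspa13 of the endoplasmic reticulum (2044 and 2568) one of 0.33. Hspa14, a ribosome-linked member, had 4164 and 3579 (-0.22). Among the HSP110 exchange factors Hsph1 had 4929 and 4758 (-0.05) and Hspa4 8554 and 7614 (-0.17). The second probe set of Hsph1 had 896 and 577 (-0.62), and the probe sets of Hspa4 ranged from -1.27 to 0.66. The remaining exchange factor, Hspa4l, had 136 and 148 (0.11), but its other 4 probe sets were lower, by -0.40 to -1.28.

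The 2 HSP90 genes of the set were even as deposited. Both were lower with median-centred arrays (median -0.15) and both higher after quantile normalization (median 0.04). Another HSP90 gene, Hsp90ab1, was not among the 91 members. Hsp90aa1, the stress-responsive cytosolic form, had 14242 without dox and 14386 with dox (0.01), although its next probe sets gave -0.17 and -0.41. Hsp90b1, the form of the endoplasmic reticulum, had 11868 and 11860 (-0.00099), and its second probe set gave -0.42.

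Most chaperonins had a slightly lower signal with dox. Of 12 genes 11 had a lower signal with dox, beside 8107 of all 18193 genes. The median of the 12 was -0.14, and none differed 2-fold. After quantile normalization the median was -0.10, and 10 of the 12 were lower. With median-centred arrays it was -0.30, but centring lowers every difference and could not have turned this direction. The CCT ring has 8 subunits in somatic cells, and 7 of the 8 genes were lower, from -0.08 for Cct3 to -0.23 for Cct8 apart from Cct6a (-0.0060). Cct4 was the exception at 0.03. Cct8 had 10792 without dox and 9175 with dox, Cct5 had 13251 and 11502 (-0.20), and Cct7 had 12800 and 11326 (-0.18). Tcp1, the founding subunit, had 12257 and 11401 (-0.10), and Cct2 had 14360 and 13530 (-0.09). Of 22 CCT probe sets with a mean signal of 500 or more, 17 were lower and 5 were higher, with a median of -0.06. All 547 genes with a mean signal of 8000 or more had a median of -0.02, and 300 of them were lower. The differences of single CCT subunits are smaller than the 0.26 by which bright probe sets of 1 gene disagree over all named genes. Among the members' own bright probe sets that value was 0.14, which Cct8, Cct5 and Cct7 exceeded. The testis forms Cct6b (29.4 and 19.5) and Cct8l1 (12.2 and 1) were dim on both arrays.

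The mitochondrial chaperonin consists of Hsp60, encoded by Hspd1, and its lid Hsp10, encoded by Hspe1. Hspd1 had 12083 and 11611 (-0.06), and Hspe1 had 10268 and 8721 (-0.24), or -0.39 by its second probe set. These neighbours are read in opposite directions from a common stretch, and their 250-base windows shared 215 bases. That stretch held a longer heat shock element, a triplet of the form GAANNTTCNNGAA on either strand, which overlaps the pairs above. The triplet was present in 0.466% of all windows and in those of 3 member genes, Hspd1, Hspe1 and the DnaJ gene Dnajb6. Their differences were -0.06, -0.24 and -0.28. The window of Hspe1 (chr1:55087898-55088147, plus strand) is shown with its 3 overlapping pairs in capitals.
Hspe1: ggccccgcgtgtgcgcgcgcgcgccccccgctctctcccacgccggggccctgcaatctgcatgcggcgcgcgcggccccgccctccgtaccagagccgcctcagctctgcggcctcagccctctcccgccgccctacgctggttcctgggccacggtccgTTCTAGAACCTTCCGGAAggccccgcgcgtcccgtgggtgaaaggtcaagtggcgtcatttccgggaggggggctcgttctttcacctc

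The heat-inducible members were listed from general knowledge, Cryab and Hspb1 among them, with earlier results of these data known. Of these 14 genes 1, Cryab, was 2-fold higher and none was 2-fold lower, with a median of 0.02. Of all 18193 genes 4.77% were 2-fold higher and 2.04% lower, with a median of 0.04. The median of the 14 was 0.02 after quantile normalization. With median-centred arrays it was -0.14 and 9 of the 14 were lower, beside a median of -0.12 for all genes. Besides Hspa1b and Cryab no member of the list reached 1.5-fold by its brightest probe set, although dimmer ones of Hspb1, Hsph1 and Hspa4l did. Dnajb1, the main DnaJ partner of inducible HSP70, had 4540 and 5400 (0.25). Bag3 had 1350 and 1543 (0.19), Dnaja1 had 13172 and 13349 (0.02), and Stip1, which links HSP70 to HSP90, had 4472 and 3572 (-0.32). Transcription factors of the heat shock response were represented by Hsf2 (41.2 and 46.3) and Hsf4 (19.2 and 29.4), both dim on both arrays. Hsf1 was not among the members. General stress and immediate early genes, which cell dissociation can induce, included no 2-fold difference among 18, with a median of 0.09. The farthest were Ddit3 (287 and 573, 0.96), Gadd45a (113 and 196, 0.72) and Dusp1 (4782 and 6789, 0.50). The second probe set of Ddit3 gave 0.04.

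**Figure D3:**
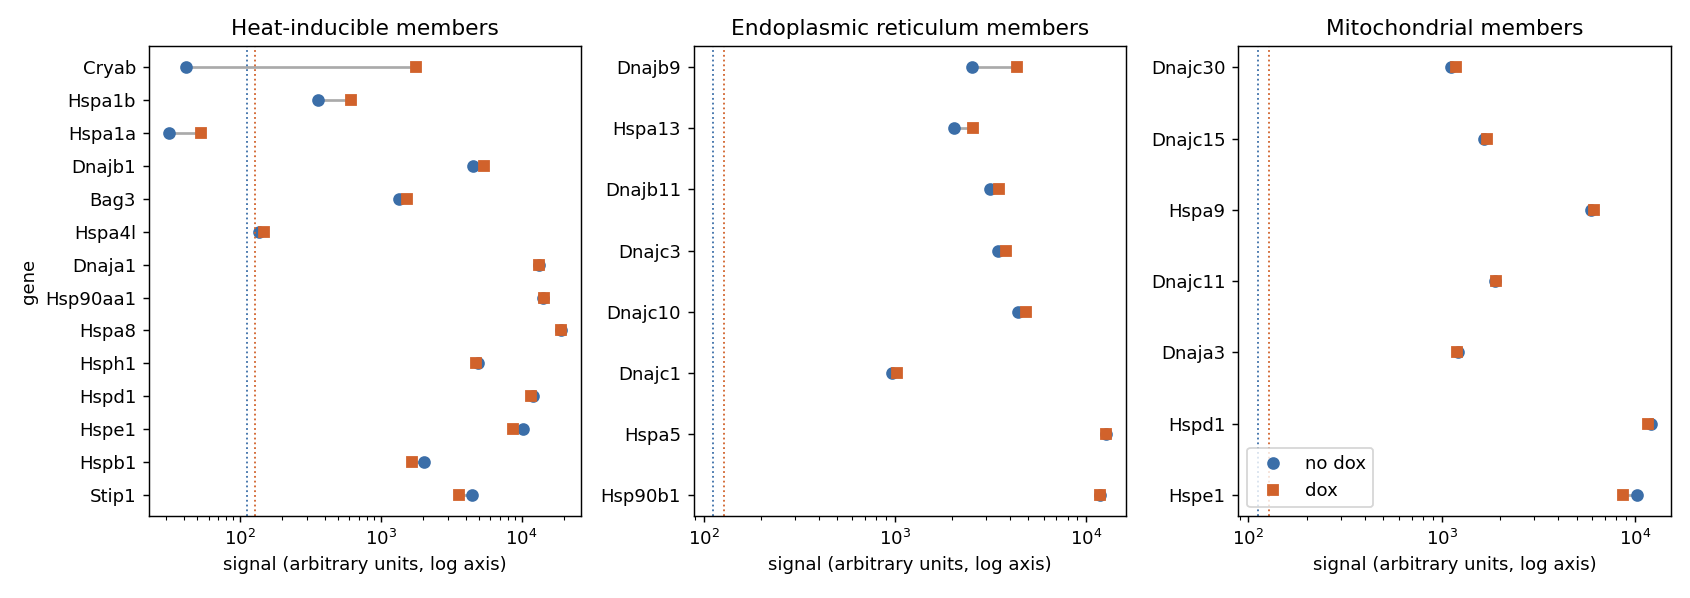
Signals without dox (circles) and with dox (squares), in arbitrary units on log axes, of the heat-inducible (14 genes), endoplasmic reticulum (8) and mitochondrial (7) chaperone members by their brightest probe sets; dotted lines are the array medians. Cryab spans the widest gap, Hspa1b and Dnajb9 show smaller ones, and most pairs of symbols overlap.

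DnaJ proteins recruit clients to HSP70 and form the largest group, with 42 genes. Of these 30 were higher by any amount, 11 were lower and 1 was equal, with a median of 0.08. Of all 18193 genes 9991 were higher and 8107 lower, with a median of 0.04. The sign of this lean depended on the scaling. The medians of the DnaJA, DnaJB and DnaJC classes were 0.03, 0.15 and 0.08 as deposited. With median-centred arrays they were -0.13, -0.01 and -0.08, beside -0.12 for all genes, and 17 of 25 DnaJC genes were lower. In class A, Dnaja4 had 83.1 and 173 (0.93), and all 3 of its probe sets were higher, from 0.22. Dnaja2 (7926 and 8120.5, 0.03) and the mitochondrial Dnaja3 (1214 and 1197, -0.02) were even.

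In class B, Dnajb5 was the only member of the whole set 2-fold lower. Its brightest probe set had 729 without dox and 332 with dox (-1.10). A second had 355 and 569 (0.66) and the dim last one had 71.4 and 81.9 (0.16), so its probe sets gave no common direction. Dnajb9, a cofactor of Hspa5 in the endoplasmic reticulum, had 2535 and 4337 (0.77) by its only probe set. Dnajb4 had 1248 and 1883 (0.59), but its next probe set gave -0.46. Dnajb6, which keeps polyglutamine proteins soluble, had 9623 and 7935, and its 4 probe sets were all lower, by -0.22 to -0.40. Dnajb3 (10.9 and 32.1, 0.84) was dim on both arrays.

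Class C holds the DnaJ proteins with specialised tasks, and all 25 of its genes lay within 2-fold. The largest differences were those of Dnajc22 (35.8 and 64.5, 0.64), which was dim on both arrays, Dnajc16 (339 and 500, 0.54) and Dnajc14 (1158 and 1586, 0.45). On the lower side Dnajc18 had 822 and 635 (-0.36), the histone chaperone Dnajc9 had 4273 and 3414 (-0.32), and Dnajc2, which works at the ribosome, had 3850 and 3169 (-0.28). All 4 probe sets of Dnajc2 were lower. The clathrin-uncoating factor Dnajc6 (64.3 and 78.3, 0.23) was dim on both arrays, whereas Dnajc13, an endosomal member, had 3034 and 3323 (0.13).

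Chaperones of the endoplasmic reticulum fold secreted and membrane proteins. Of 8 members 7 were higher by any amount, beside 9991 of all 18193 genes. The median of the 8 was 0.14, and 1, Dnajb9, passed 1.5-fold. All 8 were higher after quantile normalization but 2 with median-centred arrays, so the sign of this lean depended on the scaling. With median-centred arrays the median was -0.03 for the 8 and -0.12 for all genes. Dnajb11 had 3146 and 3495 (0.15), Dnajc3 3448 and 3794 (0.14), Dnajc10 4412 and 4844 (0.13) and Dnajc1 965 and 1024 (0.09), while Hspa5 and Hsp90b1 were even as given above. Of the 5 probe sets of Dnajc3, however, 3 were lower, and its second brightest had 1823 and 1561 (-0.22). Apart from Dnajb9 and Hspa13 (0.33) the differences of the brightest probe sets are within the 0.26 found for bright probe sets of all named genes. Dnajb11 lay just above the 0.14 of the members' own bright probe sets. The promoters of Hspa5 and Hsp90b1 each hold the endoplasmic reticulum stress element, searched on both strands as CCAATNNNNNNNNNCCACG. It was found in 0.113% of all windows and in those of 3 members, Hspa5, Hsp90b1 and Dnajc3. Both windows are shown for comparison with the heat shock elements, with the element in capitals (Hspa5, chr2:34771840-34772089, plus strand; Hsp90b1, chr10:86705445-86705694, minus strand).
Hspa5: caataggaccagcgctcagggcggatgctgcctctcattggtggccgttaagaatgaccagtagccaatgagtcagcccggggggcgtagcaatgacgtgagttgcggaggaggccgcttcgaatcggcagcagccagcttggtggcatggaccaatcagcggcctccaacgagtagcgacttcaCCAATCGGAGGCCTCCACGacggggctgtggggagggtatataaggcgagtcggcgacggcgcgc
Hsp90b1: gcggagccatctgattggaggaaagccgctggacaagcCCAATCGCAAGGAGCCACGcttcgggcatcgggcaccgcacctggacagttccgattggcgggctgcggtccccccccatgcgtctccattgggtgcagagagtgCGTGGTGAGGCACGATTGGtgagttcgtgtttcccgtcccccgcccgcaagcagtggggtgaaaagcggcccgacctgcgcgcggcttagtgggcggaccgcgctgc

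Among 17 further folding genes of the endoplasmic reticulum none differed 2-fold, and the median was -0.05. Sdf2 had 1853 and 2874 (0.63), Creld2 1973 and 1366 (-0.53) and Manf, a secreted stress protein, 7223 and 5444 (-0.41). Mitochondrial members were even as deposited, with a median of 0.03 over 7 genes and a range from -0.24 for Hspe1 to 0.08 for Dnajc30 (1116 and 1184). Dnajc15 (1660 and 1725, 0.05) and Dnajc11 (1881 and 1920.5, 0.03) lay between them. After quantile normalization the median of the 7 was -0.02 and 5 were lower, beside a median of -0.04 for all genes. With median-centred arrays it was -0.13 and all 7 were lower, beside -0.12 for all genes. The 9 other mitochondrial folding and protease genes had a median of -0.16 and none was 2-fold apart. The farthest were Clpb (724 and 484, -0.57), Lonp1 (1861 and 1302, -0.51) and Hscb (922 and 1223, 0.40).

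BAG proteins release clients from HSP70, and none of the 6 genes was lower by its brightest probe set. The median was 0.13 as deposited and -0.03 with median-centred arrays, where 5 of the 6 were lower. Bag3, which partners Hspb8, was the farthest at 0.19. Bag2 had 1129 and 1242 (0.14), Bag5 797 and 881 (0.14), Bag6 1884.5 and 2047 (0.12) and Bag1 3665 and 3717 (0.02), while Bag4 had 596 on both arrays. The other probe sets of Bag4 gave -0.25 and -0.36. The 3 other cochaperones had a median of -0.32 as deposited, -0.48 with median-centred arrays and -0.37 after quantile normalization. Of these, Hspbp1 and Stip1 were lower as deposited and after quantile normalization, and centring, which lowers every difference, could not turn them. Hspbp1, an exchange factor of HSP70, had 822 and 579 (-0.49). Hspbap1, a partner of Hspb1, had 308 and 386 (0.31) by an _x_at probe set and 52.3 and 31.0 by the next.

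Chaperone partners outside the set were taken from lists made from general knowledge, with earlier results of these data known. Of 17 HSP90 partners 1, Unc45b, was 2-fold higher and none was 2-fold lower, with a median of -0.09. Unc45b, the chaperone that folds the myosin of striated muscle, had 189 without dox and 977 with dox by its only probe set, 4.84-fold higher. Its general relative Unc45a had 1552 and 2001 (0.36), and the steroid receptor partner Fkbp5 had 590 and 367 (-0.66). Of the marker lists given beside Cryab, 7 of 18 cardiomyocyte markers but none of 10 skeletal muscle markers were 2-fold higher in the same sample, and their part in the Unc45b difference was not tested. Of 14 prefoldin and tubulin-folding genes, which feed the CCT ring or act after it, none differed 2-fold, and the median was -0.01. The farthest was Pfdn1 (3087 and 1983, -0.63), followed by Tbcd and Pdcl, each at 0.23.

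Probe sets of 1 gene often disagreed. Of 216 member probe sets 7 were 2-fold higher and 5 were 2-fold lower, and they belonged to 11 genes. Of 56 members with several probe sets, 28 had probe sets on both sides of 0, and in 13 the probe sets spread over 1 log2 unit or more. The same counts were not made over the whole array, so they cannot tell whether the members are unusual in this. Where 3 or more probe sets were present (36 genes), 4 genes were higher by all of them (Dnaja4, Dnajc14, Hspa1b and Hspb8) and 6 were lower by all (Cct3, Dnaja3, Dnajb6, Dnajc2, Hspa12a and Hspb7). These counts depended on the scaling: 2 genes were higher and 18 were lower by all probe sets with median-centred arrays, and 2 and 9 after quantile normalization. The 6 lower genes were among the 9 lower ones after quantile normalization. Centring lowers every difference, so it could not have removed them. The 2 higher ones were Dnaja4 and Hspa1b each time. The 12 probe sets past 2-fold were the brightest ones of Cryab and Dnajb5 and 10 dimmer ones. Upwards these belonged to Cryab, Hspb1, Hspb8, Dnajc5 (222 to 569, 1.30), Dnajc22 (18.5 to 68.6, 1.30) and Dnajc1 (45.5 to 132, 1.27). Downwards they belonged to Hspa12a, Hspa4l, Hspb11 (18.9 to 1, -1.04) and Hspa4 (503 to 199, -1.27). The brightest probe sets of Dnajc5 and Hspa4 gave 0.28 and -0.17. The pooled SD among the members' probe sets was 0.14 at a mean signal of 500 or more and 0.67 below it, beside 0.26 and 0.51 over all named probe sets.

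**Figure D4:**
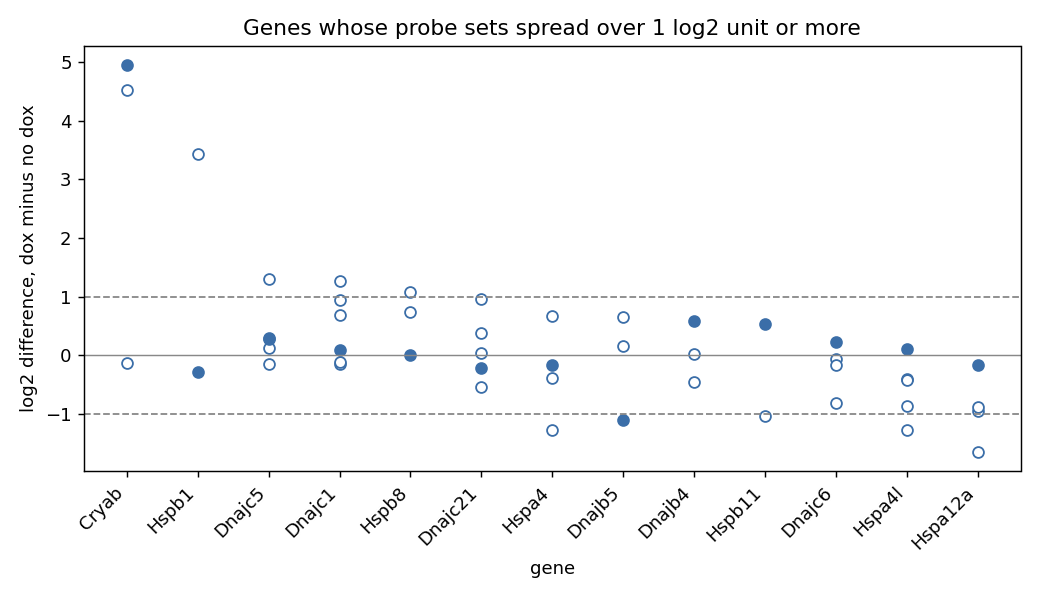
Log2 differences (dox minus no dox) of every probe set of the 13 chaperone genes whose probe sets spread over 1 log2 unit or more; filled circles are the brightest probe set of a gene, open circles the others, and dashed lines mark 2-fold. Most genes have points on both sides of 0, and Cryab is the only one with 2 probe sets above 4.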

How the data were processed

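Per the labels' protocols, total RNA (100 ng) was amplified with a 3' in vitro transcription kit and hybridised to Affymetrix arrays. The authors deposited linear intensity values, 1 for each probe set on each array, with a lowest value of 1; summarisation and scaling are not given in the sources used here. Genes were named through the platform annotation: 34945 probe sets had 1 symbol, 932 several and 9160 none, and only the first were used. All 91 members were found by Entrez number in RefSeq GRCm38.p6. In Python 3.11.15, differences were computed as log2(signal + 16) without a filter, and described by a fixed size of 2-fold, since 1 array per condition allows no test and limits the precision. The computation was tested on simulated data. Alternatives changed the pseudocount, scaling, filter, threshold and probe set. Members and lists were chosen with earlier results of these data known. Named were all small heat shock proteins, members past 2-fold, the 3 farthest of each family or list, and the heat-inducible, endoplasmic reticulum and mitochondrial members; other genes were chosen after their values were seen.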

Additional observations from a re-analysis of the deposited data

How the results depend on the processing

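Over the alternatives run, the median of the small heat shock proteins ranged from -0.13 to 0.14, that of the other members from -0.13 to 0.05 and their gap from -0.04 to 0.13, so none of the 3 kept its sign. The pooled SD of 0.45 among probe sets of 1 gene gives no measure of the error of such medians. The number of members 2-fold higher was 5 with a pseudocount of 1, 2 with the mean over probe sets, 0 with a filter on both arrays, 0 without _x_at, _s_at and _a_at probe sets, and 8 at a threshold of 1.5-fold. The number 2-fold lower was 2 with a pseudocount of 1, 0 with the mean over probe sets, 0 without those probe sets, and 2 at 1.5-fold. Without them Cryab rested on its dimmest probe set (-0.13, reversed), and Dnajb5 gave 0.16 (reversed). The suffix _a_at marks transcripts of the same gene, so an alternative without only _x_at and _s_at probe sets was added after seeing the data, and there Cryab stayed at 4.95 and Dnajb5 at -1.10. By the mean over probe sets Cryab was 3.11 and Hspb1 1.57. Over all genes the number higher was 1419 with a pseudocount of 1, 561 with a filter on the mean, 417 with a filter on both arrays and 2056 at 1.5-fold. The number lower was 845 and 185 with pseudocounts of 1 and 64, 605 with median-centred arrays, 243, 210 and 168 with filters on the brighter array, the mean and both arrays, and 1330 at 1.5-fold. Of 884 further values of single genes and medians, 848 moved by less than the SD of 0.45 and 36 by more. The sign changed in 57 of the 884, 26 of them with median-centred arrays, and 8 of the 57 moved by the SD or more. These were Cryab, Dnajb5 and Hspa8 (-0.50) without the suffixed probe sets, Hspbap1 (-0.54) in both alternatives without such probe sets, and Hspb1, Hspb11 (-0.25) and Hspa4l (-0.58) by the mean over probe sets. No paired analysis was possible because each condition has 1 array. Without detection calls, dim values cannot be told from background.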
